A study of Mus musculus with 2 samples.

Results

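Replacement histone variants are encoded by polyadenylated genes that are transcribed throughout the cell cycle, not only in S phase, and lie apart from the large histone clusters. TOBF1 peaks at 6 such mouse genes were examined, out of 21883 protein-coding genes on chromosomes 1 to 19, X and Y. The genes were H3f3a and H3f3b, H2az1 and H2az2, and H1f0 and H1f10, listed by name. The set was chosen with earlier results of these data known. All 6 matched the RefSeq table of GRCm38.p6, whose chromosome positions are those of mm10. A peak was counted for a gene when its midpoint lay in the gene's span or up to 10 kb outside it. Binding had been measured by ChIP-Seq in R1/E mouse embryonic stem (ES) cells grown in serum with LIF and crosslinked with formaldehyde and DSG. The cells carried TOBF1, the product of A830080D01Rik, tagged within a BAC, a bacterial artificial chromosome that carries a long genomic insert. The series holds 1 TOBF1 library, precipitated with an anti-GFP antibody, and 1 input library of the same tagged cells made with no antibody. The peak list of the TOBF1 library was analysed, and no file of the input was used here. With 1 library there is no replicate error, and no value below carries a test. RNA was not measured, so neither the activity of these genes nor the ES cell label could be checked in these data. No precipitation from untagged cells was used either, so TOBF1 binding and a raised signal at active promoters cannot be told apart.

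In all, 12181 peaks were listed, and their median width was 216 bp. Each has a score from the authors' peak caller, taken to be a −log10 q-value. Scores ran from 1.30 to 216.1, with a median of 9.97 and quartiles of 5.93 and 18.99. The read depth behind them is unknown.

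Replication-dependent histones are made in S phase, from short clustered genes, to package new DNA. Replacement variants are made throughout the cell cycle and are put into chromatin by chaperones and remodellers of their own. H3f3a and H3f3b both encode H3.3, which marks active genes, regulatory elements and silenced repeats in ES cells. H2az1 and H2az2 encode the H2A.Z isoforms, found beside transcription start sites at active and at Polycomb-bound promoters. H1f0 and H1f10 encode linker histones, of which H1.0 is known to accumulate as cells stop dividing and differentiate.

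Of the 6 genes, H3f3b alone had a TOBF1 peak at its annotated transcription start. RefSeq's span of H3f3b runs past this start on the upstream side, and counted at the ends of the span 0 of the 6 genes had a peak within 1 kb. The promoters of both H3.3 genes are shown because they separate the gene with this peak from its paralogue without one. Each line gives the 250 bases before the annotated start from RefSeq (GRCm38.p6), 5′ to 3′ in the direction of transcription. The H3f3b stretch is chr11:116024505-116024754 and the H3f3a stretch is chr1:180813606-180813855, both on the minus strand. Capitals mark matches, on either strand, to TATAAA (the TATA box), CCAAT (the box of that name), GGGCGG (the GC box) or ATTTGCAT (the octamer, which reads ATGCAAAT on the other strand).
H3f3b: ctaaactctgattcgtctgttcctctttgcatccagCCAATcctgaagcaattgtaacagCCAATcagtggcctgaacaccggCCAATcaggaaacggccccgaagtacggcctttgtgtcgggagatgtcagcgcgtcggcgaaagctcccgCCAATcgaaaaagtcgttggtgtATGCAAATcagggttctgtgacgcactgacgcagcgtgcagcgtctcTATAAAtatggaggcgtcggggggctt
H3f3a: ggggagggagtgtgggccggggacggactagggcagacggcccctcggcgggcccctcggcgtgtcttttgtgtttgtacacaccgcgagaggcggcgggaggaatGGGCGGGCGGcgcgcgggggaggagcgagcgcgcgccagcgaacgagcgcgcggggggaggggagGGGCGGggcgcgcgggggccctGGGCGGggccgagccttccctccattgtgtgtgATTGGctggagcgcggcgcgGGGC
The last 80 bases of the H3f3b stretch lay inside the TOBF1 peak, and 0 bases of the H3f3a stretch lay in a peak. Those 80 bases hold the octamer and the TATA box of H3f3b. Within the H3f3a stretch shown, 2 of the GC box matches overlap each other. The capitals at its end belong to a GC box that runs past the start and overlaps a further GC box there.

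The H3f3b peak covered chr11:116024333-116024584 (252 bp), and its score was 3.60. Its midpoint lay 45.5 bp past the annotated start, inside the gene (chr11:116021961-116026039). The gene table gives no exons, so the part of the gene under the peak is not stated. The nearest other gene was Unk, an RNA-binding zinc finger gene, 4.16 kb from the midpoint. The peak was therefore much closer to the H3f3b start than to any neighbouring gene. Its score was low within the list. Only 7.43% of all peaks scored lower, as did 43 of the 316 peaks within 1 kb of a protein-coding start (13.6%). Those 316 include peaks at replication-dependent histone genes. Their median score was 7.46, and that of the 72 peaks within 1 kb of a replication-dependent histone start was 5.47.

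H3f3a, which encodes the same H3.3 protein, had no peak within 50 kb. Its span (chr1:180802560-180813605) lay 75.2 kb from the nearest midpoint, of a peak upstream of the gene with a score of 8.05. That peak lay 2.98 kb from the predicted gene Gm39714, and 51.3% of all protein-coding genes had a peak closer to them. The genome also holds H3.3-like gene copies. Of 9 such copies found through RefSeq names (H3f3c, H3f3a-ps1, H3f3a-ps2 and genes with an H3mm synonym), 1 had a peak within 10 kb, beside 21.6% of all protein-coding genes and 12.5% of those in the members' range of lengths. It was the pseudogene Gm4938, 6.83 kb from the midpoint, and the other copies lay between 35.6 and 169.0 kb from a peak.

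**Figure D1:**
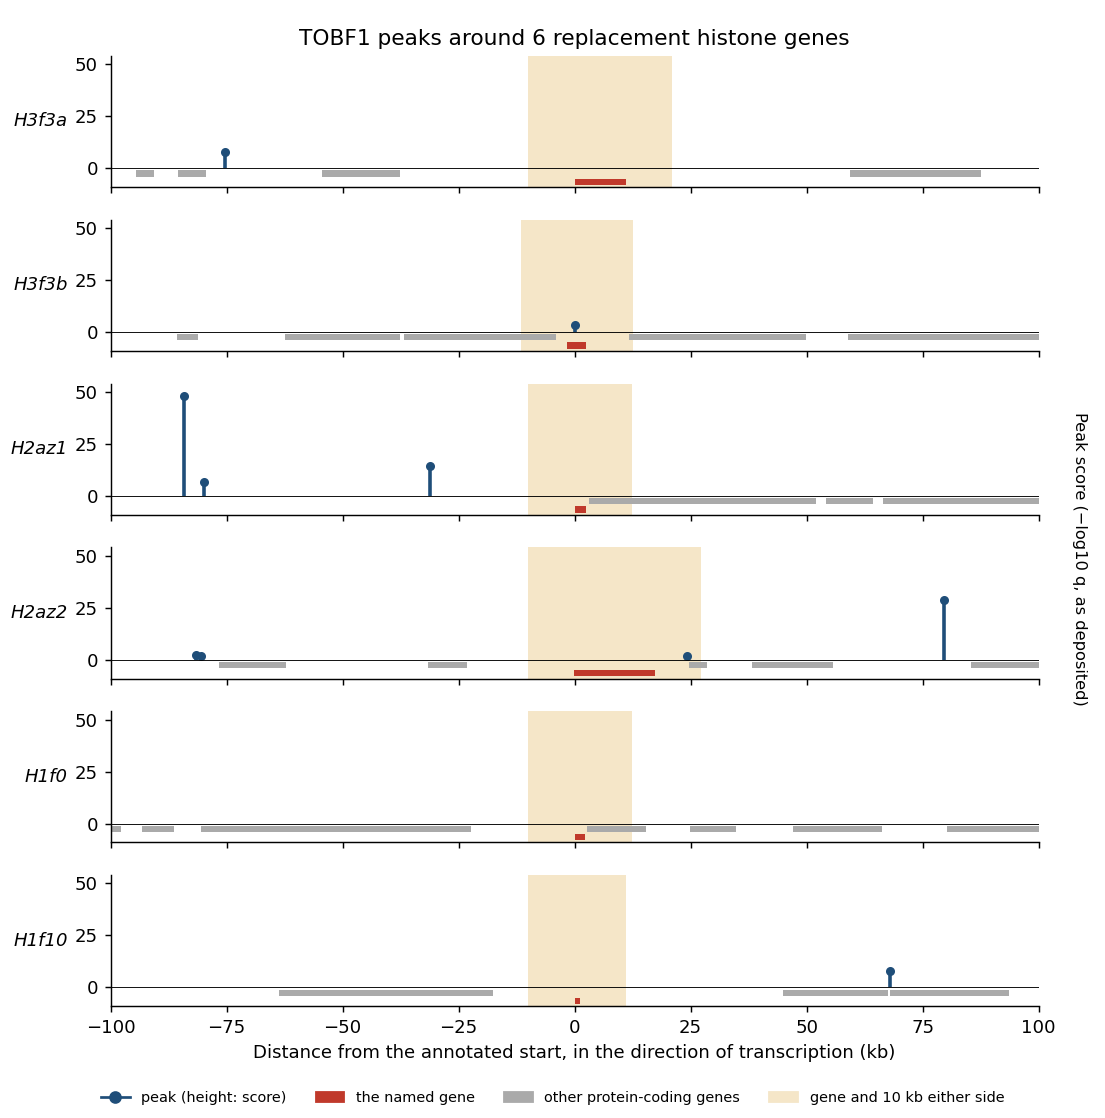
TOBF1 peaks from 100 kb upstream to 100 kb downstream of the annotated start of each of the 6 genes, drawn in the direction of transcription (x axis, kb). Stems give the deposited peak score (y axis, −log10 q), red bars the named gene, grey bars other protein-coding genes, and shading the gene with 10 kb on either side. H3f3b has a peak at its start (3.60) and H2az2 one past its end (1.83), and the shaded windows of the other 4 genes hold none.

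The H2A.Z genes had no peak at their starts. H2az2 (chr11:6427226-6444511) had the other peak of the set, at chr11:6420231-6420422 (192 bp), with a score of 1.83. Its midpoint lay 6.90 kb downstream of H2az2 and 509.5 bp downstream of Ppia, which encodes the prolyl isomerase cyclophilin A. This peak was thus assigned to H2az2 by the window, although Ppia was closer. Only 0.878% of all peaks scored lower. H2az1 (chr3:137864487-137866922) had no peak within 20 kb, and the nearest, with a score of 14.4, lay 31.2 kb upstream. Its closest protein-coding neighbour was Dnajb14, a co-chaperone gene 753 bp away. Within 100 kb H2az1 had 3 peaks, all upstream, and the highest of them scored 48.2. At longer range the list held 9 peaks within 500 kb of H2az1 and 13 within 500 kb of H2az2. The median protein-coding gene had 5.0 (quartiles 2.0 and 7.0).

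Neither linker histone gene had a peak within 50 kb. H1f0 (chr15:79028212-79030504) was the most distant member, with its nearest peak 386.2 kb away and 1.14 kb from Csnk1e, a casein kinase gene. Of all protein-coding genes, 91.4% had a peak closer to them. H1f10 (chr6:87980421-87981482) lay 66.8 kb from its nearest peak, which had a score of 7.90. That peak lay 24.5 bp from the coatomer gene Copg1, and 48.5% of protein-coding genes had a peak closer to them. H1f10 was thus slightly nearer to a peak than the median protein-coding gene (71.1 kb). Within 500 kb there were 2 peaks around H1f0, 5 around H1f10, 3 around H3f3a and 2 around H3f3b.

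Peaks in the upper part of the score range were not found close to these genes. The nearest peak at or above the median score lay 31.2 kb from H2az1 (score 14.4), 62.4 kb from H2az2 (28.6) and 111.3 kb from H3f3a (16.1). For H1f10 it lay 364.0 kb away (9.97), for H3f3b 383.2 kb (13.9) and for H1f0 878.7 kb (37.0). The median of this distance over all protein-coding genes was 143.8 kb, so 3 of the 6 genes lay on each side of it.

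Counted together, 2 of the 6 replacement histone genes had a peak in or within 10 kb (33.3%, exact 95% Clopper-Pearson interval 4.33 to 77.7%). Of all protein-coding genes 21.6% had one, as did 12.5% of the 9260 genes no shorter than H1f10 (1062 bp) and no longer than H2az2 (17286 bp). Both background shares lay inside the interval. Within 1 kb of an annotated start, the count was 1 of 6 (16.7%, interval 0.421 to 64.1%), against 1.57% of 17491 protein-coding genes with such a start. The interval covers counting error only, and a single gene, H3f3b, makes the count, which is 0 at the ends of the RefSeq spans. The count within 10 kb fell to 1 with a window of 5 kb. Once peaks that scored under the list's median were dropped, both counts were 0. The share of all protein-coding genes with a peak within 10 kb was then 12.9%, so 0 of 6 within 10 kb is an ordinary outcome.

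The replication-dependent histone genes gave a different picture. Of 65 genes matched by name, 63 had a peak in or within 10 kb (96.9%), and 52 of the 59 with an annotated start had one within 1 kb of it (88.1%). The genes without a peak within 10 kb were H2bc1 and H2ac1, which encode testis histones. The list includes H2ac14, which RefSeq annotates as a pseudogene. Clustered genes share peaks, so they do not count independently. The 65 genes shared 84 distinct peaks, and 52 of those lay in dense runs of 6 or more peaks at gaps of up to 10 kb. Without such runs the count was 31 of 65, while neither peak near a replacement gene lay in one. With peaks that scored under the list's median dropped instead, the replication-dependent count was 43 of 65. The difference between both kinds of histone gene was not tested.

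**Figure D2:**
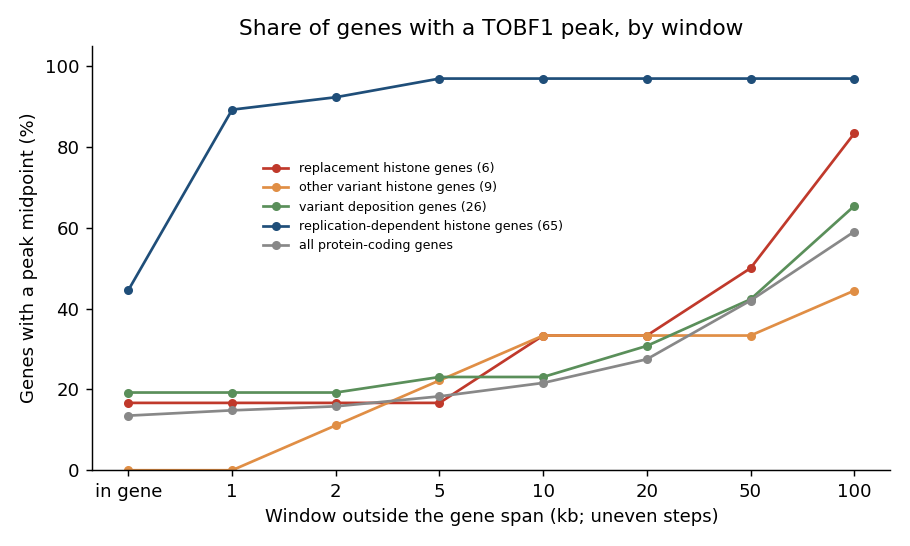
Percentage of genes with a TOBF1 peak midpoint inside the gene span or within a given distance outside it (x axis, kb, in uneven steps) for 5 sets of genes; each point is a share of the genes in its set. Replacement histone genes are at 16.7% up to 5 kb and at 33.3% at 10 kb, near all protein-coding genes (18.3% at 5 kb and 21.6% at 10 kb), and replication-dependent histone genes are at 96.9% from 5 kb on.

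The contrast was also described within each histone family. Of the replacement H3 genes, 1 of 2 had a peak within 1 kb of the start, against 10 of 10 replication-dependent H3 genes. Of the H2A.Z genes 0 of 2 had one, against 15 of 17 replication-dependent H2A genes. Among linker histones the counts were 0 of 2 for H1f0 and H1f10, against 5 of 6 for H1f1 to H1f6. At the 1.57% of all protein-coding genes, 0 of 2 is the ordinary outcome, so nothing particular to the H2A.Z or linker histone genes is read from their counts. H2B and H4, which have no replacement gene in this set, had 11 of 14 and 11 of 12.

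The H3f3b peak scored within the range of the peaks at replication-dependent genes, and the H2az2 peak below all of them. Those 84 peaks had a median score of 5.53 (range 2.25 to 22.6), and 11 of them scored lower than the H3f3b peak. None of the 84 scored lower than the H2az2 peak. A score at or above the median of the whole list was reached by 0 of the 2 peaks near replacement genes and by 13 of the 84.

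**Figure D3:**
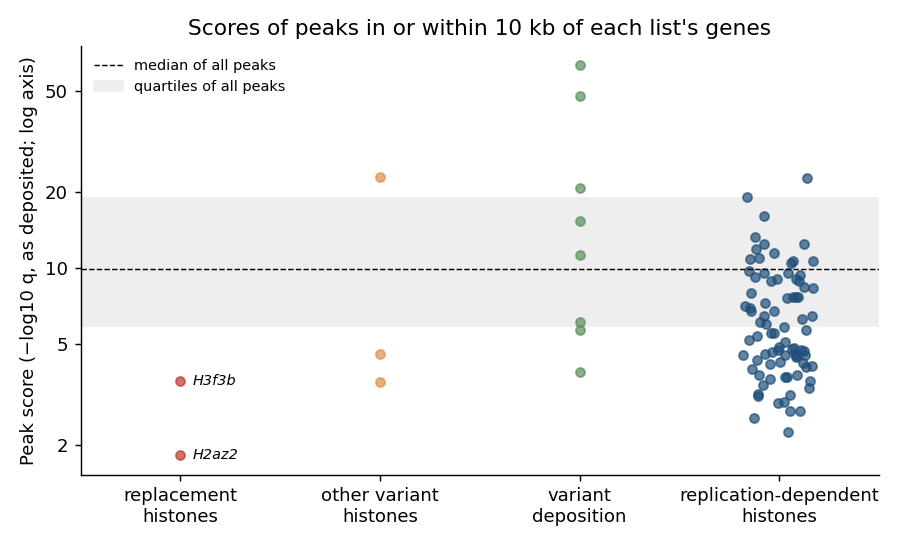
Deposited scores (y axis, −log10 q, log axis) of the peaks in or within 10 kb of each set of genes; each point is 1 peak, the dashed line is the median of all peaks (9.97) and the shading their quartiles. The peaks near H3f3b (3.60) and H2az2 (1.83) lie below the lower quartile (5.93), as do 45 of the 84 at replication-dependent histone genes, which spread from 2.25 to 22.6.

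The H3f3b promoter differed from those of the other 5 genes in its letters. It was the only one of the 6 with a TATA box, which began 27 bases before the start, and the only one with the octamer, 74 bases before it. The octamer is the sequence bound by POU factors such as Oct1 and Oct4 and is a known element of H2B promoters. H3f3b also had 4 CCAAT boxes, at 214, 190, 167 and 97 bases before the start, and no GC box. The other 5 genes each had a GC box, and CCAAT boxes were found at H3f3a, H2az1 and H2az2. H2az2 had 4 of them. No member held a CRE (TGACGTCA). These searches took both strands of the 300-base window from 250 bases before to 50 after the start.

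Among all 32851 promoter windows of the RefSeq table, 13.6% held the TATA box, 37.4% a CCAAT box, 35.7% a GC box, 1.79% a CRE and 1.74% the octamer. Among 60 windows of replication-dependent histone genes, 34 held the TATA box (56.7%), 51 a CCAAT box (85.0%), 24 a GC box (40.0%), 4 a CRE (6.67%) and 13 the octamer (21.7%). Of the 15 H2B windows, 7 held the octamer and 2 a GC box. The share at replication-dependent genes was above that of the whole table for each motif, but only slightly for the GC box, and the CRE rests on 4 windows. The whole table is not limited to protein-coding genes. Among protein-coding windows 9823 held a GC box and 11439 did not, so for the GC box the replication-dependent share lay below theirs. These differences were not tested. H3f3b held the TATA box, CCAAT box and octamer but neither the GC box nor the CRE.

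Outside the replication-dependent genes, few promoters with the octamer had a peak. Promoter windows were counted here, and a gene with several starts has several windows, which can share a peak and are not independent. Leaving out replication-dependent genes, 6 of 340 protein-coding windows with the octamer had a peak within 1 kb of the start (1.76%, exact 95% interval 0.650 to 3.80%). Without the octamer it was 247 of 20862 (1.18%, interval 1.04 to 1.34%). With the TATA box it was 27 of 2645 windows (1.02%, interval 0.674 to 1.48%). Without the TATA box it was 226 of 18557 (1.22%, interval 1.07 to 1.39%). Within the replication-dependent genes, 9 of 13 windows with the octamer had such a peak, against 53 of all 60, which include those 13. There it was 32 of 34 with the TATA box, 45 of 51 with a CCAAT box, 22 of 24 with a GC box and 4 of 4 with a CRE. The 6 genes with the octamer and a peak were H3f3b, Zfp42, Alyref2, Coq3, Il33 and Pipox. With both the TATA box and the octamer, a combination chosen after the H3f3b letters were seen, 2 of 68 had a peak, H3f3b and Il33 (2.94%, interval 0.358 to 10.2%). Without this combination it was 251 of 21134 (1.19%, interval 1.05 to 1.34%). H3f3b itself is counted in the 2 of 68 and in the 6 of 340, so neither says anything separate about its peak. The intervals with and without the octamer overlap, as do those with and without the TATA box, so no order is read from either. All these intervals treat windows as independent, so they are likely too narrow, and their overlap is not a test. A match to these letters is not a binding site.

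H3f3b also stood at the low end of the 6 genes in GC content and CpG number. Its window had 55.0% GC, against 60.7% at H2az2, 71.3% at H2az1, 74.0% at H3f3a, 75.0% at H1f0 and 77.7% at H1f10. It had 24 CpG dinucleotides, and the other 5 had 27 to 40. The medians were 52.7% GC and 7.0 CpG over all windows, and 45.3% GC and 10.5 CpG over those of replication-dependent histone genes.

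Other variant histone genes were a mixed set. Of 9 genes found, 3 had a peak in or within 10 kb (33.3%, exact 95% interval 7.49 to 70.1%), beside 21.6% of all protein-coding genes. Of the 8 with an annotated start, 0 had one within 1 kb of it, beside 1.57% of all protein-coding genes. The background share lies inside the interval, and 0 of 8 is the ordinary outcome at 1.57%. Macroh2a1, whose product carries a macro domain and is linked to silent chromatin, had a peak 7.79 kb upstream with a score of 23.0. Cenpa, the centromeric H3 variant, had one 4.27 kb downstream (4.60), which lay closer to a snoRNA gene, LOC115490283. H2ax, whose phosphorylated product marks DNA breaks, had one 1.26 kb away (3.55), inside its neighbour Dpagt1. Macroh2a2, H1f8, H1f7, H2ab1, H2ab2 and H2ab3 had none.

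Genes for the machinery that deposits these variants had peaks at a share near that of all genes. The count was 6 of 26 (23.1%, exact 95% interval 8.97 to 43.6%), beside the 21.6% of all protein-coding genes. Of the 24 with an annotated start, 0 had a peak within 1 kb of it, an ordinary outcome at the 1.57% of all protein-coding genes. For H3.3 the count within 10 kb was 2 of 9. Those were Cabin1, a subunit of the HIRA complex (score 6.13), and Dek, an H3.3 chaperone (5.72), with peaks inside the genes. Hira, Ubn1, Ubn2, Asf1a, Asf1b, Daxx and Atrx had none. For H2A.Z it was 4 of 14, namely Ino80, Ruvbl1, Actl6a and Brd8. Ino80, a remodeller that acts on H2A.Z nucleosomes, had 3 peaks. Those inside the gene scored 63.1 and 11.3, and one 7.94 kb upstream scored 47.8. Ruvbl1, an ATPase shared by several of these remodellers, had one inside the gene (20.7), and Actl6a, an actin-related subunit, had one 2.54 kb upstream (15.4). Brd8, a subunit of the p400 complex, had one inside the gene with a score of 3.91. The remodeller genes Srcap and Ep400 had none. For replication-coupled deposition, Chaf1a, Chaf1b and Nasp gave 0 of 3.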

How the data were processed

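The submitters' processing notes name the mm10 build and the tools cutadapt, Bowtie2, MACS2 and bedtools, with neither versions nor settings. Use of the input as a control and the treatment of reads that map to several places are not given in the sources used. Each peak of the deposited list has a position and a score. The authors' score is taken to be a −log10 q-value, since the lowest value (1.30) lies just above −log10 of 0.05. Scores depend on depth and local background and were used only within the list.

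The 12012 peaks on chromosomes were assigned to RefSeq gene spans (GRCm38.p6) by midpoint. Starts and strands came from the RefSeq promoter table, which has 17491 of the 21883 protein-coding genes. Genes were matched by symbol or synonym, and of 10 other variant genes listed H1f9 did not match. The text names all 6 genes and up to 4 genes per other list by highest score, and nearest neighbours. Dek, Brd8 and the genes named for having no peak were added after their values were seen. Genes named for their promoter letters were chosen after their values were seen. Members and lists were chosen with earlier results of these data known. Alternatives were other windows, a stricter score, any overlap, merged peaks and leaving out dense runs. Counting was tested on simulated peaks. The software was pandas 2.3.3 and NumPy 2.4.6 in Python 3.11.15, with SciPy 1.17.1 for intervals and matplotlib 3.10.9 for plots.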

Additional observations from a re-analysis of the deposited data

How the results depend on the processing

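Of 43 alternative values, 31 stayed within the limits set for them (1.5 times a count, or the exact 95% interval of the share over all genes). After peaks that scored under the list's median were dropped, the replacement genes with a peak fell to 0 within 10 kb and 0 at the start, and the peaks near them to 0. Under the same threshold, other variant genes fell to 1, deposition genes to 3 and the share over protein-coding genes to 12.9%. Replication-dependent genes fell from 63 to 43 of 65, which stayed within the limit for a count. A window of 5 kb left 1 replacement gene, 1 peak and 18.3% of protein-coding genes, and a window of 20 kb gave 27.5% of protein-coding genes. Leaving out dense runs left 31 replication-dependent genes. Counting at either end of the RefSeq span, an alternative added after seeing the data, gave 0 replacement genes, because the span of H3f3b runs past the annotated start used here. Merging peaks within 1 kb and counting any overlap moved no value past these limits. No paired analysis was possible because the series has 1 library per group. With no read depth given, a gene without a peak may still be bound below the peak caller's threshold.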
